A study of Mus musculus with 18 samples.

Results

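The ATF4 amino acid response genes are 10 genes taken by name from the 43280 genes counted in these libraries: Atf4, Asns, Psat1, Phgdh, Slc7a5, Slc3a2, Chac1, Trib3, Ddit3 and Ddit4. The rule is a list of names and uses no measured value, but the list was chosen with earlier results of these data known. Counts of these genes called below therefore describe them and are not an independent test. All 10 were among the 13922 genes with enough counts to be tested. The data are RNA counts of 18 libraries from sorted mouse cells, which fall into 4 groups. The iRTE group (n = 5) and the Artificial CD8 group (n = 5) were CD8+ T cells, and the CD4+CD8+ group (n = 3) held cells with both coreceptors. All 3 were grown from one source, named Pmel iPSC in the labels, which are induced pluripotent stem cells. The splenic CD8 group (n = 5) was naive CD8+ T cells taken directly from the spleens of transgenic mice. Artificial CD8 and CD4+CD8+ cells were made on OP9-DL1, a stromal line that presents a Notch ligand to drive T-cell development in a dish. The labels do not spell out iRTE. The design text mentions CD8+ cells from a 3D thymic culture, and iRTE is the one group left for them, yet the growth protocol of every sample, iRTE included, describes OP9-DL1. No sample carried a treatment, and the labels give neither strain nor age.

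ATF4 is a bZIP transcription factor at the end of the integrated stress response. The eIF2 kinases GCN2, PERK, PKR and HRI sense uncharged tRNA, unfolded protein in the endoplasmic reticulum, double-stranded RNA and haem shortage, and they slow general translation while the Atf4 mRNA is translated more. ATF4 is therefore controlled largely at the level of protein, which these libraries do not measure. Its targets make amino acids, bring them into the cell, charge tRNAs and, under lasting stress, encode factors of growth arrest and cell death. In T cells the same amino acid genes are known to be induced when naive cells begin to grow.

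ATF4 binds, with C/EBP partners, a composite element that was searched here as TGATGNAA on both strands, with N for any base. Promoter windows of 300 bases, running from 250 bases before to 50 bases after the RefSeq start (GRCm38.p6), were found for 9 of the 10 genes, and Slc7a5 was not among them. The element was present in 3 of these 9, Asns, Chac1 and Trib3, against 4.51% of all 27025 genes with a window. The stretches holding it in the 2 genes whose levels differed most between the groups are shown 5′ to 3′ on the strand of the gene, with the match in capitals. They lie at chr6:7693210-7693309 on the minus strand for Asns and at chr2:119351002-119351101 on the plus strand for Chac1.
Asns: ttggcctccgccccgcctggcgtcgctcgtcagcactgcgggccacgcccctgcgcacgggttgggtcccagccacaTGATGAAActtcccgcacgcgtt
Chac1: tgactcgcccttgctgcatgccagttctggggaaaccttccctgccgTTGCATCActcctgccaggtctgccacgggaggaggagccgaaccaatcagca
The Asns match reads on the strand of the gene, from base -23 to -16 of the RefSeq start. The GENCODE M21 model of Asns begins farther upstream, so these positions hold for RefSeq alone. The Chac1 match lies on the opposite strand, from base -193 to -186. The match in Trib3 is also on the opposite strand, after the RefSeq start, from base 15 to 22. The GENCODE M21 model of Trib3 begins farther downstream, so the match lies before that start. These matches describe the letters of the windows only, and binding was not measured.

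Total counts per library ran from 11132768 to 19305751, and 3 counts, used as the floor, equal 0.152 to 0.287 CPM (counts scaled to library size). Markers of CD8 T cells, summed over 7 genes, gave 9439 to 11297 CPM in iRTE, 6772 to 7236 CPM in Artificial CD8, 8504 to 9709 CPM in CD4+CD8+ and 10051 to 10378 CPM in splenic CD8 libraries. Cd4 was at 155 to 263 CPM in the CD4+CD8+ libraries, 1.89 to 9.17 CPM in Artificial CD8 libraries and at most 0.162 CPM in the other 2 groups. Summed stromal markers (9 genes) gave 0.973 to 4.31 CPM in iRTE, 17.3 to 26.3 CPM in Artificial CD8, 1.38 to 62.5 CPM in CD4+CD8+ and 2.23 to 3.62 CPM in splenic CD8 libraries, with Dcn and Lum at 0 in every library. Summed thymic epithelial markers (5 genes) gave 0.621 to 8.78 CPM in iRTE, 29.8 to 39.2 CPM in Artificial CD8, 15.6 to 19.4 CPM in CD4+CD8+ and 1.62 to 4.28 CPM in splenic CD8 libraries, with Foxn1 at 0 in every library. Both sums were higher in every Artificial CD8 library than in every iRTE library, and each was carried mostly by 1 gene there. Epcam averaged 4.33 CPM in iRTE and 36.5 CPM in Artificial CD8 libraries, and Krt5, Krt8 and Psmb11 averaged under 0.1 CPM in both. Pdgfrb averaged 2.25 CPM in iRTE and 18.5 CPM in Artificial CD8 libraries, while the collagen genes Col1a1 and Col3a1 averaged 0 CPM in iRTE and 0.245 and 0.567 CPM in Artificial CD8 libraries. The part of Epcam and Pdgfrb in the results was not tested. Some libraries stood apart within their group. CD4+CD8+ library 1 had a stromal sum of 1.38 CPM, against 44.5 and 62.5 CPM in libraries 2 and 3, and Cd4 at 155 CPM, against 253 and 263 CPM. In iRTE, 2 libraries differed from the rest. Library 5 of iRTE had 3366 CPM over 12 immediate early genes, against 838 to 1092 CPM in the other 4. Library 4 of iRTE had 1409 CPM over 18 cell cycle genes, against 3584 to 4058 CPM in the other 4. Libraries 1 to 3 and 4 to 5 of iRTE also carry different styles of sample description. In bulk RNA, fewer cells that express a gene and less RNA of it per cell cannot be told apart.

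Asns encodes asparagine synthetase, which makes asparagine from aspartate and glutamine, and its gene lies at chr6:7675169-7693254 on the minus strand (GRCm38, as are the positions of the other genes). Its level was 4.98, 13.9, 16.4, 5.91 and 24.0 CPM in the iRTE libraries. It was 218, 210.1, 202, 219.5 and 225 CPM in the Artificial CD8 libraries. It was 64.4, 38.2 and 46.2 CPM in the CD4+CD8+ libraries, and the splenic CD8 libraries held 0, 0, 0, 4 and 2 counts. The 4 groups did not overlap, with Artificial CD8 highest, CD4+CD8+ next, then iRTE, and splenic CD8 near the floor. Asns was lower in iRTE than in Artificial CD8 cells by a log2 fold change of -4.04 ± 0.43 (SE, adjusted p = 6.7e-08, edgeR quasi-likelihood F test). Differences with an adjusted p under 0.05 over all tested genes are called here, and others are given as not called. It was also lower in iRTE than in CD4+CD8+ cells (-1.92 ± 0.48, adjusted p = 0.000658) and higher in Artificial CD8 than in CD4+CD8+ cells (2.12 ± 0.22, adjusted p = 0.00137). Against splenic CD8 cells the fitted log2 changes were 7.21 in iRTE, 11.25 in Artificial CD8 and 9.13 in CD4+CD8+ cells. They rest on 6 splenic counts in all, and without splenic CD8 library 4 they were 8.27, 12.32 and 10.19.

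Phgdh and Psat1 encode the first 2 enzymes of serine synthesis from a glycolytic intermediate, and lie at chr3:98313170-98339990 (Phgdh) and chr19:15904678-15947337 (Psat1), both on the minus strand. Psat1 stood at 113, 101, 70.0, 22.7 and 106 CPM in iRTE libraries. The Artificial CD8 libraries had 392, 361, 307, 352 and 363 CPM, the CD4+CD8+ libraries 162, 131 and 153 CPM, and the splenic CD8 libraries 24.0, 27.9, 25.3, 30.3 and 26.9 CPM. Library 4 of iRTE lay below every splenic library, while the other 4 iRTE libraries lay between splenic CD8 and CD4+CD8+ cells. Psat1 was lower in iRTE than in Artificial CD8 cells (log2 fold change -2.10 ± 0.44, adjusted p = 6.31e-06) and higher in iRTE than in splenic CD8 cells (1.62 ± 0.44, adjusted p = 5.33e-05). It was higher in Artificial CD8 than in CD4+CD8+ cells by 1.26 ± 0.11 (adjusted p = 0.0112), a call lost without CD4+CD8+ library 2 (1.18, adjusted p = 0.0558). The difference of iRTE from CD4+CD8+ cells (-0.85 ± 0.44, adjusted p = 0.0437) was not called without any one of CD4+CD8+ library 1 (-0.78), 2 (-0.93) or 3 (-0.82) or iRTE library 3 (-0.79), with no filter on low counts (adjusted p = 0.0701) or with those 2 groups fitted alone (adjusted p = 0.236).

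Phgdh followed the same order of extremes with smaller differences. It had 379.7, 361, 463, 182 and 343 CPM in iRTE libraries and 508, 476, 452, 460.1 and 498 CPM in Artificial CD8 libraries. It had 343, 287 and 272 CPM in CD4+CD8+ libraries and 174, 149, 161, 182 and 170.4 CPM in splenic CD8 libraries. Again iRTE library 4 was the lowest of its group, next to the highest splenic library, and iRTE library 3 lay within the Artificial CD8 range. Phgdh was lower in iRTE than in Artificial CD8 cells by -0.47 ± 0.23 on the log2 scale (adjusted p = 0.0275). That call was lost without Artificial CD8 library 1 (-0.45, adjusted p = 0.0567) or 5 (-0.45, adjusted p = 0.0515) and when the 2 groups were fitted alone (adjusted p = 0.0633). Phgdh was higher in Artificial CD8 than in CD4+CD8+ cells by 0.67 ± 0.11 (adjusted p = 0.0234), a call lost without CD4+CD8+ library 2 (0.64, adjusted p = 0.0812) or 3 (0.61, adjusted p = 0.0954). The iRTE and CD4+CD8+ levels were not called different (0.20 ± 0.25, adjusted p = 0.477), but iRTE was called higher without its library 4 (0.36, adjusted p = 0.0197). All 3 cultured groups were higher than splenic CD8 cells, by 1.05 ± 0.23 in iRTE, 1.52 ± 0.06 in Artificial CD8 and 0.85 ± 0.11 in CD4+CD8+ cells, the least significant at an adjusted p of 0.000721.

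Slc7a5 (LAT1) and Slc3a2 (CD98) encode the light and heavy chain of one transporter, which imports leucine and other large neutral amino acids. They lie at chr8:121881150-121907694 (Slc7a5) and chr19:8706882-8723369 (Slc3a2), both on the minus strand. Slc7a5 was at 141, 96.9, 103, 131 and 97.6 CPM in iRTE and at 428, 357, 379, 393 and 396 CPM in Artificial CD8 libraries. It was at 150.2, 149 and 166 CPM in CD4+CD8+ and at 44.7, 42.1, 49.0, 48.2 and 41.3 CPM in splenic CD8 libraries. No 2 groups overlapped. Slc7a5 was lower in iRTE than in Artificial CD8 cells (log2 fold change -1.78 ± 0.12, adjusted p = 9.71e-10) and higher in Artificial CD8 than in CD4+CD8+ cells (1.33 ± 0.07, adjusted p = 3.79e-06). The step between iRTE and CD4+CD8+ cells was smaller (-0.44 ± 0.12, adjusted p = 0.0126) and was not called without CD4+CD8+ library 3 (-0.39, adjusted p = 0.0720) or with those 2 groups fitted alone (adjusted p = 0.152). Relative to splenic CD8 cells, the log2 fold change was 1.34 ± 0.12 in iRTE, 3.11 ± 0.07 in Artificial CD8 and 1.78 ± 0.07 in CD4+CD8+ cells (largest adjusted p = 1.17e-08).

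The heavy chain varied less. Slc3a2 was at 127, 111, 121, 135 and 175 CPM in iRTE and at 257, 227, 244, 264 and 262 CPM in Artificial CD8 libraries. It was at 164, 136 and 151 CPM in CD4+CD8+ and at 134, 112, 108, 122 and 131 CPM in splenic CD8 libraries. Artificial CD8 libraries lay above all others, and the other 3 groups lay close together. Slc3a2 was higher in Artificial CD8 than in CD4+CD8+ cells (0.74 ± 0.09, adjusted p = 0.00105) and than in splenic CD8 cells (1.05 ± 0.07, adjusted p = 1.99e-07), and lower in iRTE than in Artificial CD8 cells (-0.91 ± 0.12, adjusted p = 3.83e-06). It was not called different between iRTE and splenic CD8 cells (0.14 ± 0.13, adjusted p = 0.302), and the sign turned when libraries were scaled by total counts alone (-0.03). It was called higher in iRTE when libraries 4 and 5 stood for the group (0.35, adjusted p = 0.0250). Between iRTE and CD4+CD8+ cells it was not called either (-0.17 ± 0.14, adjusted p = 0.373), but it was called lower in iRTE without iRTE library 5 (-0.28, adjusted p = 0.0494). The rise in CD4+CD8+ over splenic CD8 cells (0.31 ± 0.10, adjusted p = 0.0485) sat at the threshold. It was lost without CD4+CD8+ library 1 (0.24) or 3 (0.31) or splenic CD8 library 2 (0.30), 3 (0.29) or 4 (0.33), and under DESeq2 (adjusted p = 0.0504).

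**Figure D1:**
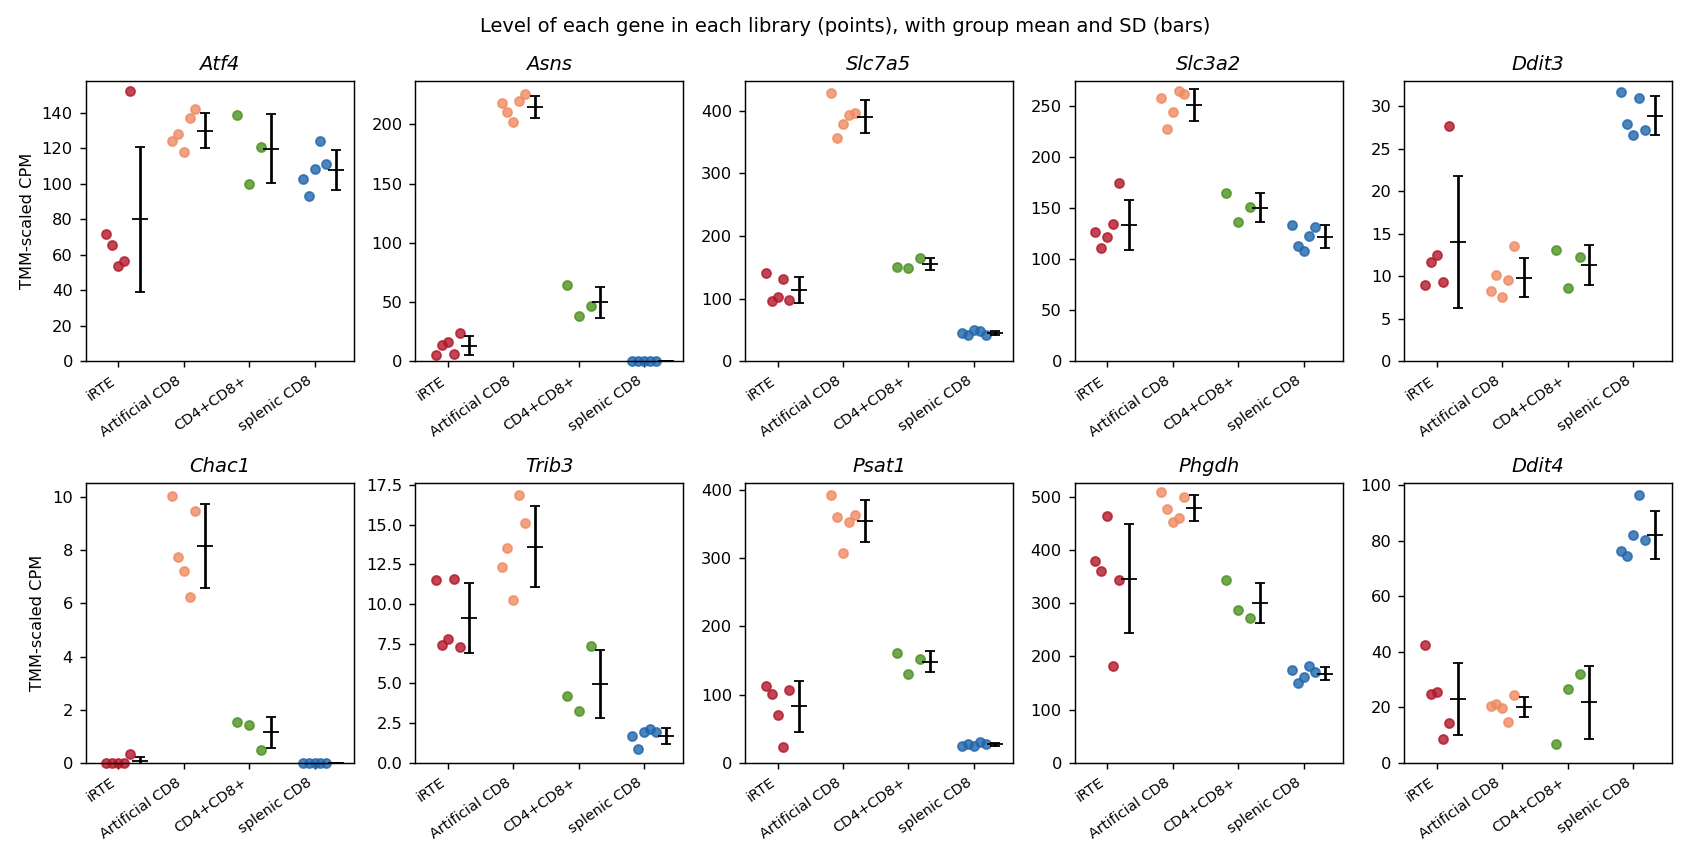
Level of each of the 10 genes, in TMM-scaled CPM on linear axes that start at 0, with a point per library for iRTE, Artificial CD8, CD4+CD8+ and splenic CD8 groups and the mean with SD beside them. Asns spans 202 to 225 CPM in Artificial CD8 libraries and 0 to 0.241 CPM in splenic CD8 libraries, while Ddit4 is at 74.3 CPM or more in splenic CD8 libraries alone.

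Chac1 encodes a cyclotransferase that breaks down glutathione and is induced late in the response, from chr2:119351229-119354381 on the plus strand. It had no count in iRTE libraries 1 to 4 and 5 counts (0.320 CPM) in iRTE library 5. It had 10.04, 7.76, 7.22, 6.24 and 9.48 CPM in Artificial CD8 libraries, 1.56, 1.42 and 0.486 CPM in CD4+CD8+ libraries, and no count in any splenic CD8 library. It was thus detected in every Artificial CD8 and CD4+CD8+ library and in 1 of the other 10. The fitted log2 change in iRTE was -6.62 against Artificial CD8 cells (adjusted p = 7.34e-06) and -3.81 against CD4+CD8+ cells (adjusted p = 0.00349). Without iRTE library 5 they were -9.90 and -7.09, and Chac1 in iRTE was then at least 32.4-fold lower than in Artificial CD8 and at least 4.59-fold lower than in CD4+CD8+ cells at the floor of 3 counts per library. Against splenic CD8 cells, Chac1 was at least 39.9-fold higher in Artificial CD8 cells (adjusted p = 5.49e-07) and at least 5.66-fold higher in CD4+CD8+ cells (adjusted p = 8.1e-05). Between Artificial CD8 and CD4+CD8+ cells the log2 change was 2.81 ± 0.48 (adjusted p = 0.015), a call lost without CD4+CD8+ library 3 (2.45, adjusted p = 0.0726). No fold is given for iRTE against splenic CD8 cells, as both were under the floor on average.

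Trib3 encodes a pseudokinase that is induced by ATF4 and feeds back on it (chr2:152337422-152344032, minus strand). Its level was 11.5, 7.45, 7.78, 11.6 and 7.29 CPM in iRTE and 12.4, 13.6, 10.2, 16.8 and 15.1 CPM in Artificial CD8 libraries. It was 4.23, 3.26 and 7.36 CPM in CD4+CD8+ and 1.67, 0.849, 1.97, 2.11 and 1.95 CPM in splenic CD8 libraries. The splenic libraries lay below all others, and the iRTE range began below the highest CD4+CD8+ library and ended within the Artificial CD8 range. Trib3 was higher than in splenic CD8 cells by 2.41 ± 0.27 in iRTE, 2.99 ± 0.25 in Artificial CD8 and 1.53 ± 0.40 in CD4+CD8+ cells (largest adjusted p = 0.000489). It was higher in Artificial CD8 than in CD4+CD8+ cells (1.46 ± 0.36, adjusted p = 0.00586). The difference of iRTE from Artificial CD8 cells (-0.58 ± 0.19, adjusted p = 0.0925) was not called, but was called under DESeq2 (adjusted p = 0.0497), limma-voom (adjusted p = 0.0297) and total-count scaling (adjusted p = 0.0450). That of iRTE from CD4+CD8+ cells (0.88 ± 0.37, adjusted p = 0.0534) was called without CD4+CD8+ library 3 (1.28, adjusted p = 0.0198), without iRTE library 5 (0.95, adjusted p = 0.0343), and under DESeq2 (adjusted p = 0.0216).

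Ddit3 (CHOP), a bZIP factor linked to cell death under lasting stress, and Ddit4 (REDD1), an inhibitor of mTORC1, ran the other way. They lie at chr10:127290774-127296288 on the plus strand (Ddit3) and chr10:59949669-59951834 on the minus strand (Ddit4). Ddit3 was at 9.001, 11.7, 12.5, 9.28 and 27.7 CPM in iRTE and 8.26, 10.2, 7.57, 9.54 and 13.6 CPM in Artificial CD8 libraries. It was at 13.05, 8.62 and 12.3 CPM in CD4+CD8+ and 31.7, 27.9, 26.6, 30.9 and 27.2 CPM in splenic CD8 libraries. The splenic libraries were above every cultured library except iRTE library 5, which lay within their range. Ddit3 was lower than in splenic CD8 cells by log2 fold changes of -1.04 ± 0.30 in iRTE (adjusted p = 0.0024), -1.55 ± 0.15 in Artificial CD8 (adjusted p = 5.64e-05) and -1.35 ± 0.19 in CD4+CD8+ cells (adjusted p = 0.00144). It was not called different among the cultured groups (adjusted p = 0.13 to 0.715), and the sign between iRTE and CD4+CD8+ cells turned without iRTE library 5 (-0.09, against 0.31). With iRTE represented by libraries 4 and 5, Ddit3 was called higher than in Artificial CD8 cells (0.90, adjusted p = 0.0315) and was no longer called lower than in splenic CD8 cells (-0.64, adjusted p = 0.118). The 3′ part of the opposite-strand gene Mars overlaps the 3′ end of Ddit3, from 5447 bases after the start of Ddit3. The labels do not state the strand setting of the counting, so reads of the 2 genes cannot be told apart there. By gene span, Slc7a5 also lies within the opposite-strand gene Gm20388, and Psat1 overlaps the opposite-strand pseudogene Gm3329. Whether exons overlap in these was not examined.

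Ddit4 was at 42.4, 24.8, 25.4, 8.47 and 14.5 CPM in iRTE and 20.4, 21.2, 19.6, 14.7 and 24.4 CPM in Artificial CD8 libraries. It was at 6.74, 26.7 and 31.9 CPM in CD4+CD8+ and 76.4, 74.3, 82.2, 96.4 and 80.3 CPM in splenic CD8 libraries. Every splenic library lay above every cultured one. The CD4+CD8+ library lowest in Ddit4, library 1, was also the one with a stromal sum of 1.38 CPM, against 44.5 and 62.5 CPM. A link between the 2 was not tested. Ddit4 was lower than in splenic CD8 cells by -1.83 ± 0.40 in iRTE, -2.03 ± 0.14 in Artificial CD8 and -1.91 ± 0.70 in CD4+CD8+ cells (largest adjusted p = 0.00116). The iRTE value was -2.83 with libraries 4 and 5 alone. Its differences among the cultured groups were not called (adjusted p = 0.697 to 0.925), and their signs turned with the library left out or the scaling.

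Atf4 itself, at chr15:80255184-80257541 on the plus strand, was at 71.6, 65.4, 53.9, 56.7 and 152 CPM in iRTE and at 124, 128, 118, 137 and 142 CPM in Artificial CD8 libraries. It was at 139, 99.8 and 121 CPM in CD4+CD8+ and at 103, 93.2, 109, 124 and 111 CPM in splenic CD8 libraries. Libraries 1 to 4 of iRTE were below every other library, and iRTE library 5 was above all of them. Atf4 mRNA was lower in iRTE than in Artificial CD8 cells (log2 fold change -0.70 ± 0.28, adjusted p = 0.0145), a call lost when the 2 groups were fitted alone (adjusted p = 0.0551) or when iRTE was represented by libraries 4 and 5 (-0.32, adjusted p = 0.34). It was not called different between iRTE and splenic CD8 cells (-0.43 ± 0.28, adjusted p = 0.0915) or between iRTE and CD4+CD8+ cells (-0.58 ± 0.30, adjusted p = 0.0914). Without iRTE library 5 both were called lower in iRTE (-0.80, adjusted p = 1.16e-05, and -0.96, adjusted p = 2.43e-05). Atf4 was not called different between Artificial CD8 and splenic CD8 cells (0.27 ± 0.08, adjusted p = 0.287), although it was when those groups were fitted alone (0.28, adjusted p = 0.00365). Nor was it called between Artificial CD8 and CD4+CD8+ cells (0.12 ± 0.15, adjusted p = 0.808) or between CD4+CD8+ and splenic CD8 cells (0.15 ± 0.15, adjusted p = 0.61). The mean Atf4 level of Artificial CD8 cells, 130.02 ± 9.76 CPM (SD, n = 5), thus lay near the 108 ± 11.4 CPM (n = 5) of splenic CD8 cells, while Asns averaged 215 ± 9.23 CPM and 0.0822 ± 0.115 CPM in the same groups.

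Levels of different genes can be compared only per length, and mean CPM per kilobase of exon (GENCODE M21 lengths) were used for this. Phgdh was the highest of the 10 genes per kilobase in each group, at 139, 193, 121 and 67.2 CPM per kilobase in iRTE, Artificial CD8, CD4+CD8+ and splenic CD8 cells. In Artificial CD8 cells it was followed by Slc7a5 at 105, Psat1 at 83.4 and Asns at 78.6 CPM per kilobase, and Chac1 was lowest at 4.98. In splenic CD8 cells it was followed by Ddit4 at 46.7 and Atf4 at 45.8 CPM per kilobase, and Asns was at 0.03. The 2 chains of the transporter were at 105 (Slc7a5) and 71.1 (Slc3a2) CPM per kilobase in Artificial CD8 cells, against 12.2 (Slc7a5) and 34.5 (Slc3a2) in splenic CD8 cells.

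Between iRTE and Artificial CD8 cells, the 2 kinds of CD8+ cell from one stem cell source, no gene of the 10 was called higher and 7 were called lower in iRTE: Asns, Slc7a5, Slc3a2, Psat1, Phgdh, Chac1 and Atf4. Among all tested genes, 20.0% were called higher and 18.7% lower. The groups did not overlap for 5 of the 10 (23.6% of all tested genes). The median log2 change was -0.80 over the 10 genes and 0.01 over all tested genes. Scaling by total counts alone shifted the median of all genes by -0.12, and 39.4% of all calls were then higher in iRTE in place of 51.8%. The cell cycle genes were lower too, with 16 of 18 called lower in iRTE (median log2 change -1.15) and summed levels of 1409 to 4058 CPM in iRTE against 6272 to 7781 CPM in Artificial CD8 libraries. How far the genes of the response move with cell division was not tested.

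Between Artificial CD8 and CD4+CD8+ cells, 7 of the 10 genes were called higher in Artificial CD8 and none lower: Asns, Chac1, Trib3, Slc7a5, Psat1, Slc3a2 and Phgdh. In the same comparison 6.54% of all tested genes were called higher and 8.12% lower. These shares depend on the fit. With all libraries 2041 of 13922 tested genes were called, and with the 2 groups fitted alone 3362 of 12822. The number of the 10 genes called was 7 in both. For the same 7 genes the groups did not overlap (29.0% of all tested genes). The number called was 7 without CD4+CD8+ library 1, the one with few stromal and Cd4 counts, and 5 without library 2 or without library 3. The median log2 change was 1.00 over the 10 genes and 0.00 over all. Here no cell cycle gene of 18 was called in either direction (median 0.07). The fit shares its estimate of spread over all groups, iRTE included, so a missing call does not show an equal level. Cell cycle genes were not examined with the 2 groups fitted alone. The 2 groups did not overlap for 10 of these 18, against 29.0% of all tested genes. The summed cell cycle level was 6272 to 7781 CPM in Artificial CD8 against 5744 to 6375 CPM in CD4+CD8+ libraries. Mki67 was at 106 CPM in Artificial CD8 and 215 CPM in CD4+CD8+ cells (-1.02 ± 0.16, adjusted p = 0.192), and its libraries did not overlap between these groups.

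Between iRTE and CD4+CD8+ cells, none of the 10 genes was called higher and 4 were called lower in iRTE: Asns, Slc7a5, Chac1 and Psat1. Among all tested genes 11.8% were called higher and 12.3% lower, and 19.5% did not overlap, as the same 4 genes did not. The median log2 change was -0.31 over the 10 genes and 0.02 over all. Scaling by total counts alone shifted the median of all genes by -0.10, and 36.9% of all calls were then higher in iRTE in place of 49.0%. The number of the 10 called was 7 without iRTE library 5. It was 1 of 9 when the 2 groups were fitted alone, where 1069 of 12008 tested genes were called. Chac1 did not pass the count filter there, and Slc7a5 (adjusted p = 0.152) and Psat1 (adjusted p = 0.236) were not called. In this comparison 14 of 18 cell cycle genes were called lower in iRTE (median -1.13).

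Against splenic CD8 cells, every cultured group had Asns, Slc7a5, Trib3, Psat1 and Phgdh higher and Ddit3 and Ddit4 lower. These 3 comparisons share the splenic libraries, so they are given side by side. In iRTE, 5 of the 10 genes were called higher and 2 lower (all tested genes, 29.2% and 29.0%), and 5 did not overlap (41.2%). In Artificial CD8 cells, 7 were called higher and 2 lower (30.3% and 30.2%), and 9 did not overlap (61.1%). In CD4+CD8+ cells, 7 were called higher and 2 lower (28.9% and 27.4%), and 9 did not overlap (63.4%). The median log2 change of the 10 genes was 1.05 in iRTE without Chac1, for which no fold is given, and over all 10 it was 2.25 in Artificial CD8 and 1.19 in CD4+CD8+ cells, against -0.05, -0.03 and -0.03 over all tested genes. Total-count scaling shifted the median of all genes by -0.18 for iRTE. Cell cycle genes were called higher in 17, 18 and 18 of 18 in iRTE, Artificial CD8 and CD4+CD8+ cells. Erythroid markers, summed over 6 genes, were at 169 to 219 CPM in splenic CD8 libraries and at most 2.54 CPM in any cultured library. B-cell markers (6 genes) were at 33.6 to 47.5 CPM in splenic CD8 libraries and at most 7.10 CPM in any cultured library. The part of both in these results was not tested.

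**Figure D2:**
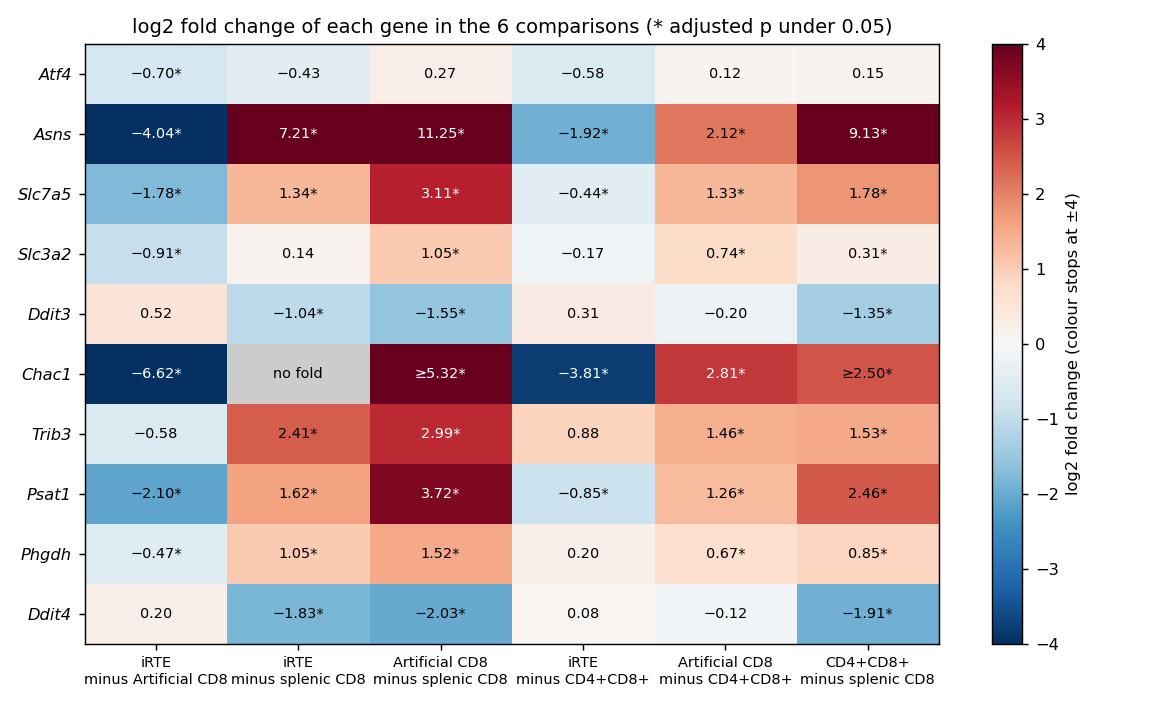
Log2 fold change of each of the 10 genes (down) in the 6 comparisons (across), coloured red above 0 and blue below, with the colour stopping at 4 either way, a star where the adjusted p was under 0.05 and ≥ for lower bounds. Asns is at -4.04 for iRTE minus Artificial CD8 and at 2.12 for Artificial CD8 minus CD4+CD8+, and Ddit3 and Ddit4 are below 0 in each comparison with splenic CD8 cells.

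**Figure D3:**
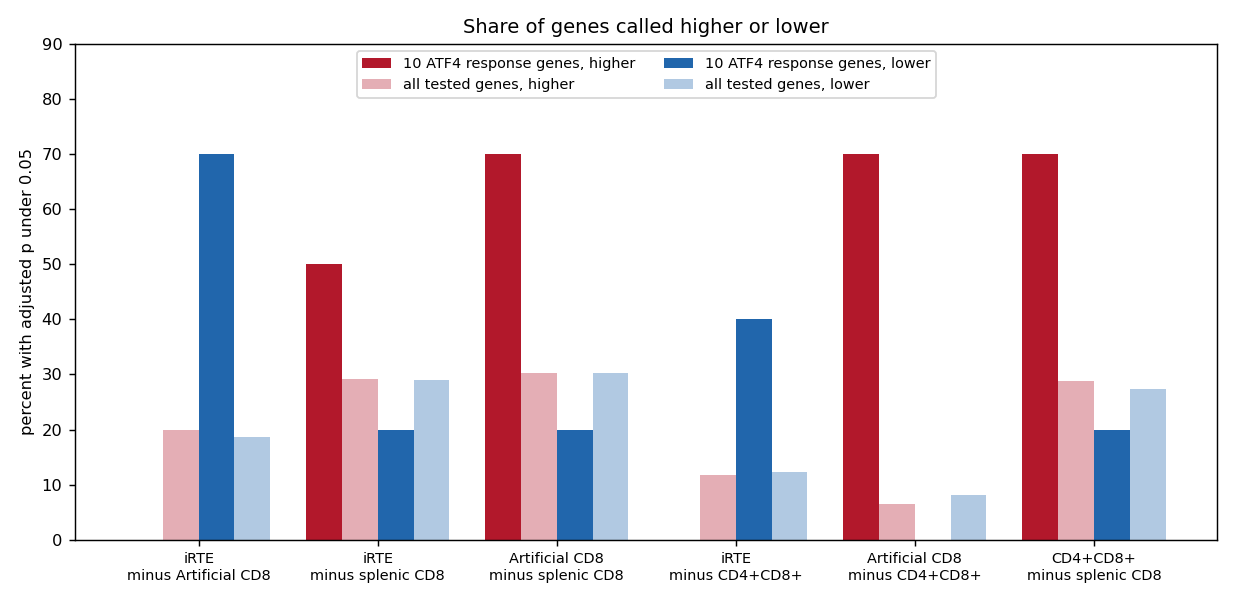
Percent of the 10 genes (solid bars) and of all 13922 tested genes (pale bars) called higher (red) or lower (blue) at an adjusted p under 0.05 in each comparison. For Artificial CD8 minus CD4+CD8+, 7 of the 10 genes are called higher, against 6.54% of all tested genes, in the fit of all 18 libraries.

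The other genes of amino acid synthesis were read from a list of serine, proline and one-carbon enzymes, of which 12 were tested. The counts of this and the following lists stand beside the shares of all tested genes given above. These were 20.0% higher and 18.7% lower in iRTE against Artificial CD8 cells and 6.54% higher and 8.12% lower in Artificial CD8 against CD4+CD8+ cells. Against splenic CD8 cells they were 29.2% higher and 29.0% lower in iRTE, 30.3% and 30.2% in Artificial CD8, and 28.9% and 27.4% in CD4+CD8+ cells. In iRTE against Artificial CD8 cells none of the 12 enzymes was higher and 8 were lower (median log2 change -0.72). Gpt2, which makes alanine, was at 2.23 CPM in iRTE and 42.0 CPM in Artificial CD8 cells (-4.19 ± 0.60, adjusted p = 4.47e-07). Shmt1, which passes one-carbon units from serine to folate in the cytosol, was at 30.5 CPM in iRTE and 126 CPM in Artificial CD8 cells (-2.05 ± 0.24, adjusted p = 7.44e-08). In Artificial CD8 against CD4+CD8+ cells 6 were higher and none lower (median 0.73). They included Gpt2 (2.66 ± 0.35, adjusted p = 0.00127) and the mitochondrial enzyme Shmt2, at 455 CPM in Artificial CD8 and 257 CPM in CD4+CD8+ cells (0.82 ± 0.17, adjusted p = 0.00103). Mthfd2, which follows Shmt2 in the mitochondrial folate pathway, did not pass there, at 145 CPM in Artificial CD8 and 93.2 CPM in CD4+CD8+ cells (adjusted p = 0.12). Against splenic CD8 cells 8 were higher in iRTE, 11 in Artificial CD8 and 10 in CD4+CD8+ cells, and none was lower. In iRTE against CD4+CD8+ cells, where 11.8% of all tested genes were higher and 12.3% lower, 1 enzyme was higher and 5 were lower. There, 1 transporter of 14 was higher and 1 lower, and 4 of 13 genes of the tRNA synthetase list were lower. Of 8 ATF4 partners and induced factors 1 was higher and 1 lower. Of 14 genes of eIF2 control 1 was lower, of 10 mTORC1 brakes 1 was higher, and of 15 IRE1 and ATF6 targets 3 were higher.

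Of 14 amino acid transporters other than the pair above, 2 were higher and 9 lower in iRTE than in Artificial CD8 cells (median -0.97). The arginine and lysine transporter Slc7a1 was at 40.9 CPM in iRTE and 78.9 CPM in Artificial CD8 cells (-0.95 ± 0.11, adjusted p = 2.54e-06), and the glutamine transporter Slc38a1 at 169 CPM in iRTE and 318 CPM in Artificial CD8 cells (-0.91 ± 0.09, adjusted p = 3.66e-07). The glutamine exchanger Slc1a5 went the other way, at 223 CPM in iRTE and 137 CPM in Artificial CD8 cells (0.70 ± 0.26, adjusted p = 0.00761). It was at 484 CPM in splenic CD8 cells, and all 3 cultured groups were called lower than that (log2 changes of -1.12 in iRTE, -1.82 in Artificial CD8 and -2.11 in CD4+CD8+ cells). The list gave 4 higher and 2 lower in iRTE, 11 higher and 2 lower in Artificial CD8 and 7 higher and 2 lower in CD4+CD8+ cells than in splenic CD8 cells. For iRTE, 4 of 14 higher lay near the share of all tested genes, 29.2%. In Artificial CD8 against CD4+CD8+ cells 6 transporters were higher and 2 lower. Slc7a11, the cystine importer and a known ATF4 target, was 1 of the 2 that were lower, at 1.00 CPM in Artificial CD8 and 6.37 CPM in CD4+CD8+ cells (-2.64 ± 0.82, adjusted p = 0.0273). That call was lost without CD4+CD8+ library 2 (-2.10) or 3 (-2.79) or Artificial CD8 library 1 (-2.57) or 2 (-2.38), and the change was -3.27 without Artificial CD8 library 4.

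The cytosolic tRNA synthetases and the tRNA exporter Xpot (13 genes tested) were higher in 1 and lower in 10 in iRTE than in Artificial CD8 cells (median -0.49). Aars was at 203 CPM in iRTE and 395 CPM in Artificial CD8 cells (-0.96 ± 0.11, adjusted p = 4.78e-07), and Wars was the gene that was higher, at 279 CPM in iRTE and 190.0 CPM in Artificial CD8 cells (0.55 ± 0.17, adjusted p = 0.00278). In Artificial CD8 against CD4+CD8+ cells 4 of the 13 were higher and none lower. Compared with splenic CD8 cells, 9 were higher in iRTE, 13 in Artificial CD8 and 12 in CD4+CD8+ cells. Of the 8 synthetase genes with a promoter window, 5 held the TGATGNAA element, against 4.51% of all genes with a window. It was also held by 3 of 11 genes of the enzyme list, 3 of 12 transporters and 3 of 9 genes of ATF4's partners and induced factors. Of the lists below, eIF2 control had 0 of 11, mTORC1 brakes 0 of 10 and IRE1 and ATF6 targets 1 of 13. Cell cycle genes had 0 of 15 and immediate early genes 0 of 10.

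**Figure D4:**
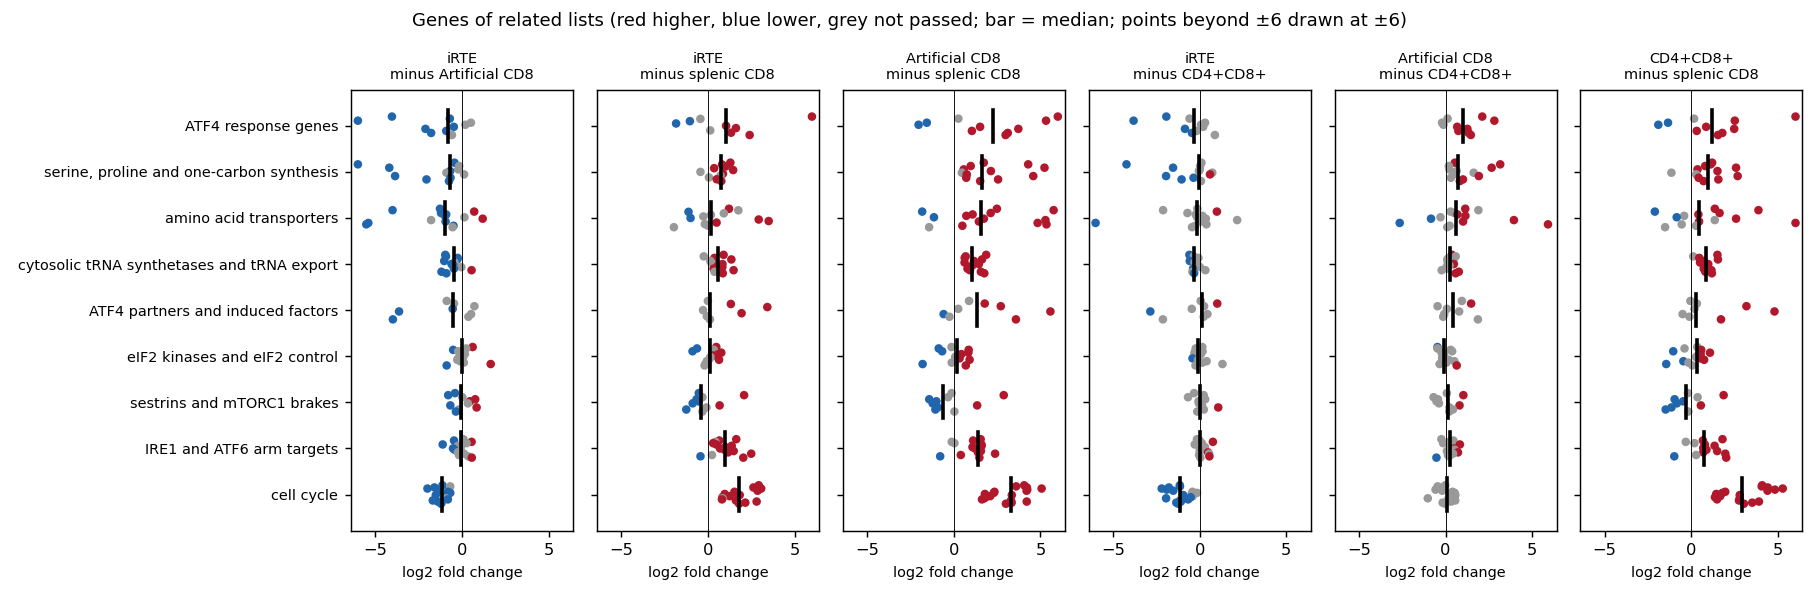
Log2 fold change of each tested gene of the related lists (down the page) in the 6 comparisons (across), with red points for genes called higher, blue for lower, grey for not passed, and a bar at the median of each list. In iRTE minus Artificial CD8 the lists of synthesis enzymes, transporters and tRNA synthetases have 8, 9 and 10 genes called lower and medians of -0.72, -0.97 and -0.49.

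The factors that pair with ATF4 or are induced by it (8 tested, all bZIP proteins except Nupr1) included 3 (Jdp2, Cebpg and Nupr1) that were lower and none higher in iRTE than in Artificial CD8 cells. Jdp2 was at 1.35 CPM in iRTE and 16.7 CPM in Artificial CD8 cells (-3.63 ± 0.23, adjusted p = 1.16e-08). Cebpb, a C/EBP partner of ATF4, was the 1 factor called higher in Artificial CD8 than in CD4+CD8+ cells, at 16.4 CPM in Artificial CD8 and 5.90 CPM in CD4+CD8+ cells (1.47 ± 0.10, adjusted p = 0.00176). The list gave 4 higher and none lower in iRTE, 4 higher and 1 lower in Artificial CD8 and 3 higher and none lower in CD4+CD8+ cells than in splenic CD8 cells. Upstream of ATF4, the genes of the eIF2 kinases and of eIF2 control (14 tested) had 2 higher and 2 lower in iRTE than in Artificial CD8 cells (median -0.02) and 1 each way in Artificial CD8 against CD4+CD8+ cells (median -0.10), shares near those of all tested genes. Set against splenic CD8 cells, 5 were higher and 2 lower in iRTE, 7 higher and 3 lower in Artificial CD8, and 6 higher and 3 lower in CD4+CD8+ cells. Eif2ak4, which encodes GCN2, was at 11.9, 13.8, 10.6 and 22.0 CPM in iRTE, Artificial CD8, CD4+CD8+ and splenic CD8 cells. It was not called different among the cultured groups and was lower in each than in splenic CD8 cells (largest adjusted p = 0.0300). That of Artificial CD8 cells (-0.67) was no longer called without any one of Artificial CD8 library 1, 3, 4 or 5 or splenic CD8 library 1, 3 or 5 (-0.58 to -0.65). Eif2ak3, which encodes PERK, was lower at 90.2 CPM in iRTE, against 128 CPM in Artificial CD8 cells (-0.51 ± 0.16, adjusted p = 0.0199), a call lost without Artificial CD8 library 3 (-0.45, adjusted p = 0.0517). Eif2ak1 (HRI) went the other way, at 151 CPM in iRTE and 98.6 CPM in Artificial CD8 cells (0.62 ± 0.17, adjusted p = 0.0012). It was lower in Artificial CD8 than in CD4+CD8+ cells, at 136 CPM (-0.47 ± 0.11, adjusted p = 0.0457). Eif2ak2 (PKR) was not called different among the cultured groups (smallest adjusted p = 0.0847). Ppp1r15a, the stress-induced subunit of the eIF2 phosphatase and a target downstream of ATF4 and CHOP, was higher at 51.6 CPM in iRTE, against 16.4 CPM in Artificial CD8 cells (1.66 ± 0.58, adjusted p = 0.00635). Its iRTE libraries ran from 17.7 to 159 CPM with a median of 26.8 CPM, and without iRTE library 5 the log2 change was 0.59 (adjusted p = 0.0110). Of 12 immediate early genes 7 were called higher in iRTE too, and their sum was highest in iRTE library 5.

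The list of mTORC1 brakes (10 tested), which also held Eif4ebp1, did not move one way. It had 3 higher and 4 lower in iRTE than in Artificial CD8 cells. In Artificial CD8 against CD4+CD8+ cells 2 were higher and none lower. In each cultured group 2 were higher and 5 lower than in splenic CD8 cells. In these and in Artificial CD8 against CD4+CD8+ cells, the 2 that were higher were Eif4ebp1 and Sesn2. Sesn2, a leucine sensor that ATF4 induces, was at 22.7 CPM in iRTE and 36.2 CPM in Artificial CD8 cells (-0.67 ± 0.15, adjusted p = 0.00194). It was at 20.7 CPM in CD4+CD8+ cells, and Artificial CD8 cells were higher than these by 0.81 ± 0.16 (adjusted p = 0.00621). Eif4ebp1, a repressor of translation and a known ATF4 target, was at 40.2, 69.8, 34.3 and 9.47 CPM in iRTE, Artificial CD8, CD4+CD8+ and splenic CD8 cells. It was lower in iRTE than in Artificial CD8 cells (-0.79 ± 0.11, adjusted p = 0.000232) and higher in Artificial CD8 than in CD4+CD8+ cells (1.03 ± 0.17, adjusted p = 0.000661). The targets of the other 2 arms of the unfolded protein response, IRE1 and ATF6 (15 tested), gave 2 higher and 4 lower in iRTE than in Artificial CD8 cells (median -0.07) and 3 higher and 1 lower in Artificial CD8 than in CD4+CD8+ cells (median 0.27). Of the 15, 12 were higher than in splenic CD8 cells in iRTE (median 0.96), 12 in Artificial CD8 (median 1.39) and 11 in CD4+CD8+ cells (median 0.71), and 1 was lower in each. Hspa5, the chaperone BiP, was at 1451, 1948, 1359 and 745 CPM in iRTE, Artificial CD8, CD4+CD8+ and splenic CD8 cells. Myc, which promotes amino acid uptake in growing T cells, was at 421, 230.3, 203 and 74.6 CPM in those groups. It was higher in iRTE than in Artificial CD8 cells (0.87 ± 0.28, adjusted p = 0.00324), and 0.48 to 0.97 with a library left out. Its relative Mycn was lower in iRTE, at 1.01 CPM, against 5.91 CPM in Artificial CD8 cells (-2.50 ± 0.92, adjusted p = 0.0351). Myc was not called between Artificial CD8 and CD4+CD8+ cells (0.18 ± 0.03, adjusted p = 0.686). The part of either gene in the levels of the 10 genes was not tested.

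**Figure D5:**
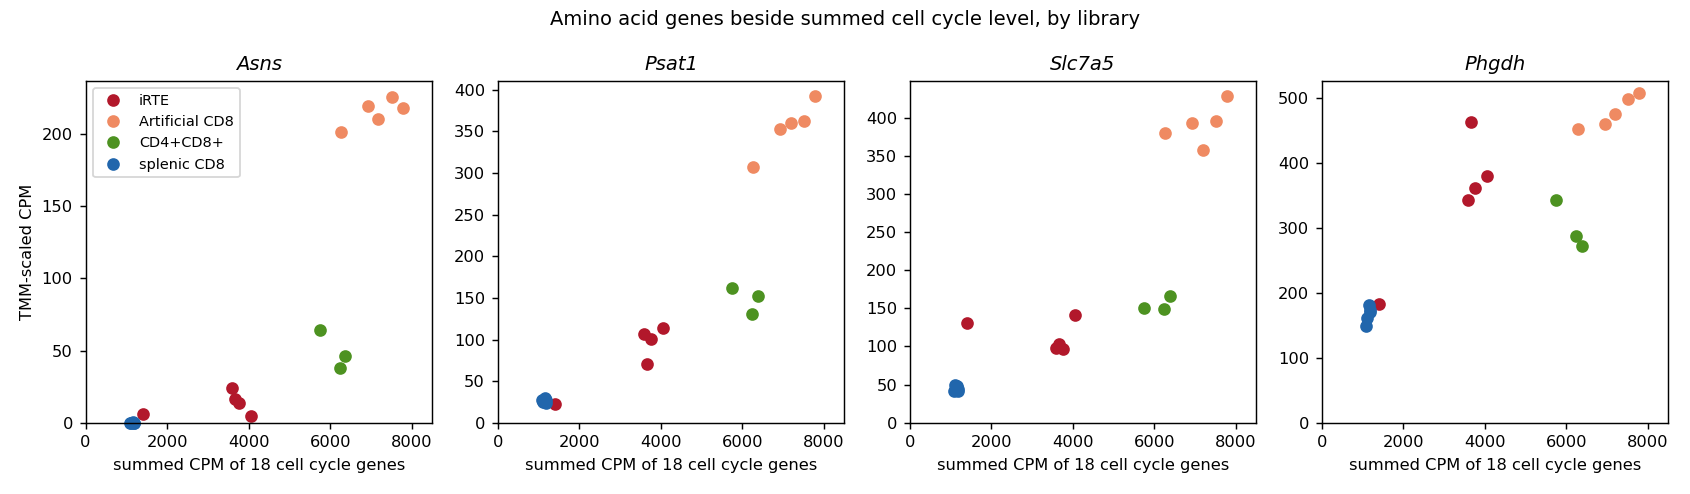
Level of Asns, Psat1, Slc7a5 and Phgdh (CPM) against the summed CPM of 18 cell cycle genes, with a point per library coloured by group and linear axes from 0. Artificial CD8 libraries (6272 to 7781 CPM of cell cycle genes) and CD4+CD8+ libraries (5744 to 6375 CPM) lie near each other across and apart in Asns, at 202 to 225 CPM in Artificial CD8 and 38.2 to 64.4 CPM in CD4+CD8+ libraries.

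Over the 18 libraries, the 5 tested genes with log2 levels most like Asns, leaving out the 10 genes themselves and predicted or clone-named genes, were Prss57 (Pearson r = 0.989), Sae1 (0.988), Hmga1 (0.985), Yars (0.983) and Uck2 (0.983). All points share the group differences, so these values describe the order of the groups. Prss57 averaged 6.21 ± 5.22 CPM in iRTE, 57.4 ± 3.08 CPM in Artificial CD8 and 24.8 ± 5.05 CPM in CD4+CD8+ libraries, and had no count in splenic CD8 libraries. Yars, a tRNA synthetase, averaged 110.0, 205, 137 and 60.7 CPM in iRTE, Artificial CD8, CD4+CD8+ and splenic CD8 libraries. Within groups, after each group's mean was taken off, Atf4 and Ddit3 deviated together (r = 0.83 over 18 libraries), as did Psat1 and Phgdh (r = 0.79), while Asns and Slc7a5 did not (r = -0.62). The first pair share the high iRTE library 5 and the second the low iRTE library 4.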

How the data were processed

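RNA sequencing counts of 18 sorted mouse libraries were used. The deposited values are whole-number counts per gene, which the authors made from sorted, duplicate-marked alignments with read groups, per the file headers. The submitters' processing notes name STAR 2.4.2, Subread, edgeR and mm9 without roles, and the sources used here state no annotation and no strand setting. A deposited table of log2 values was not used. The sort kept cells by CD45, TCRab, CD4 and CD8 and dropped those with NK1.1, TCRgd or CD11c, per the labels.

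In R 4.3.3, 13922 genes passed filterByExpr of edgeR 4.0.16 and libraries were scaled by TMM (factors 0.886 to 1.06). All 18 libraries entered 1 quasi-likelihood fit that had 1 coefficient for each group. The 6 comparisons were tested by edgeR's quasi-likelihood F test, and p-values were adjusted over all tested genes by Benjamini-Hochberg at a threshold of 0.05, which is what "called" means. Each SE comes from within-group variances of log2 CPM (prior count 2), not from the fit. Total counts were 11132768 to 19305751, and the floor of 3 counts covers counting error only. Whether replicates are separate cultures or animals is not stated in the labels, and p-values reflect the spread among these libraries alone, which may be technical. No 2 replicates agreed within counting error (chi-square per gene at least 4.51).

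The 10 genes and the related lists were chosen with earlier results of these data known. Besides the 10 genes, each related list gave the 2 called genes with the smallest adjusted p per direction in a comparison, of which those described are a part, plus the eIF2 kinases, Myc, Sesn2, Slc7a11, Mthfd2, Shmt2, Hspa5 and Mki67. Eif2ak4, Eif4ebp1, Wars and Ppp1r15a fall under this rule in at least 1 comparison. Gene lengths and positions came from GENCODE M21 (GRCm38) and promoters from RefSeq, not from the build of the counts. Alternatives were RLE scaling, total counts alone, other low-count filters, DESeq2 1.42.0, limma-voom (limma 3.58.1), fits of 2 groups alone, the replicate number as a block, each library left out (for the related genes added after seeing the data), and the iRTE libraries split by their style of description.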

Additional observations from a re-analysis of the deposited data

Results flagged for a closer look

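In 29 sets of libraries, 1 gene in 1 group each, the highest and lowest library were compared with the rest of its group. Chance marks about 1 in 20 such sets if values are normally spread. The 3 sets that stood out were all in iRTE library 5, so they are not independent of each other. Its Atf4 level was 152 CPM, against 53.9 to 71.6 CPM in the other 4 iRTE libraries. Its Ddit3 level was 27.7 CPM, against 9.001 to 12.5 CPM. Its Chac1 level was 0.320 CPM (5 counts), against no count in the other 4. With no count in those, any count in the remaining library would be marked, so the Chac1 mark was fixed in advance. Library 5 of iRTE also had the highest Asns of its group, at 24.0 CPM, and 3366 CPM over 12 immediate early genes, against 838 to 1092 CPM in the other 4. The part of the immediate early level in the 3 genes was not tested.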

How the results depend on the processing

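Under the alternatives listed, 18 values of single genes changed sign, all of them not called before or after. With total counts alone, Slc3a2 in iRTE against splenic CD8 cells was -0.033 and Ddit4 in iRTE against CD4+CD8+ cells was -0.060. With limma-voom, Ddit4 was -0.072 in iRTE against Artificial CD8 and 0.12 in Artificial CD8 against CD4+CD8+ cells. With the replicate number as a block, Atf4 was -0.013 and Ddit4 0.066 in Artificial CD8 against CD4+CD8+ cells. With iRTE libraries 1 to 3 alone, Slc3a2 was -0.022 against splenic CD8 and Ddit3 -0.032 against CD4+CD8+ cells. With iRTE libraries 4 and 5 alone, Ddit4 was -0.81 against Artificial CD8 cells, and against CD4+CD8+ cells Slc3a2 was 0.045, Phgdh -0.19 and Ddit4 -0.93. Leaving out each library in turn, Ddit4 ranged from -0.14 to 0.41 in iRTE against Artificial CD8, from -0.35 to 0.46 in iRTE against CD4+CD8+ and from -0.55 to 0.26 in Artificial CD8 against CD4+CD8+ cells, and Ddit3 from -0.094 to 0.44 in iRTE against CD4+CD8+ cells. The cause was not tested.

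The number of the 10 genes called in iRTE against CD4+CD8+ cells was 4 with all libraries, 1 with those 2 groups fitted alone, 7 with iRTE libraries 1 to 3 alone and 3 to 7 with a library left out. It was 6 to 7 in iRTE against Artificial CD8, 7 to 8 in iRTE against splenic CD8, 9 to 9 in Artificial CD8 against splenic CD8, 5 to 7 in Artificial CD8 against CD4+CD8+ and 8 to 9 in CD4+CD8+ against splenic CD8 cells with a library left out. With the 2 groups fitted alone, 1069 of 12008 tested genes were called in iRTE against CD4+CD8+ cells, and 3366 of 13922 in the fit of all libraries. In Artificial CD8 against CD4+CD8+ cells the 2 groups fitted alone gave 3362 of 12822. The fit of all libraries called 2041 of 13922 there. That count was 1316 to 1773 with a library left out, 1316 without CD4+CD8+ library 1.

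Same-numbered libraries did not deviate together (24 pairs, correlations from -0.066 to 0.0587, none above 0.1), and for 3 of 18 libraries the most alike library of another group had the same number, so the numbers are taken as names. With the replicate number as a block, 7, 8, 9, 4, 7 and 9 of the 10 genes were called, in the order iRTE against Artificial CD8 and splenic CD8, Artificial CD8 against splenic CD8, iRTE and Artificial CD8 against CD4+CD8+, and CD4+CD8+ against splenic CD8 cells. Under the block, Atf4 was called lower in iRTE than in splenic CD8 (-0.52, adjusted p = 0.0261) and CD4+CD8+ cells (-0.80, adjusted p = 0.0182), and Psat1 in iRTE against CD4+CD8+ cells was not called (-0.86, adjusted p = 0.0644). Depth limits Chac1 in iRTE and splenic CD8 cells and Asns in splenic CD8 cells, which had 0 to 5 counts per library.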
